A study of Anser cygnoides with 9 samples.

Results

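Transcript levels were compared between cultured goose granulosa cells that received alarelin acetate, a synthetic peptide agonist of the receptor for gonadotropin-releasing hormone (GnRH), and cells that received cetrorelix acetate, a synthetic peptide antagonist of that receptor. A gene entered the comparison where it reached 1 TPM (a share of all transcripts corrected for length) in 3 or more of the 6 libraries of these groups. This kept 806 of the 1371 genes listed in the deposited table. Of the 565 genes below the filter, 59 were listed at 0 in all 6 libraries and 506 had a value above 0 in at least 1 of them. Among the 806 genes, 713 were at 1 TPM or more in all 6 libraries.

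The cells were ovarian granulosa cells of Sichuan white geese aged 40 weeks, whose ovaries were removed 2 hours before laying. The labels name small and large yellow follicles as the tissue, and the design text names preovulatory follicles together with pre-hierarchical ones measuring 4 to 12 mm. There were 3 agonist, 3 antagonist and 3 blank libraries, the blank ones labelled as control. The groups share breed, age, tissue and culture, and no genetic change is named. The doses of both peptides were chosen with proliferation assays. Neither the doses nor the exposure times are given in the sources used here, so the peptides are compared at doses that may differ. No source says whether replicates were separate birds, cultures or preparations. The p-values therefore reflect the spread among these libraries alone, and that spread may be technical.

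Granulosa cells surround the oocyte within the avian follicle, and in the large yellow follicles they are the main makers of progesterone. GnRH is best known as the hypothalamic peptide that makes the pituitary release gonadotropins, but its receptor is also found in ovarian cells, where it acts through G proteins, calcium and mitogen-activated protein kinases. A classical early consequence of that signalling in pituitary cells is the induction of immediate early transcription factors such as EGR1 and JUN. In the follicle, activin, its binding protein follistatin, bone morphogenetic proteins and growth factors such as VEGFA tune granulosa cell division and differentiation.

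The listed TPM summed to between 28759.5 and 31031.9 in the 6 libraries, or 2.88% to 3.10% of a complete TPM set. The table thus holds part of the transcriptome, and sequencing depth cannot be read from it. The first principal component of the 6 libraries took 56.7% of the variance of log2(TPM + 1) and separated the groups, with scores of -6.77, -2.95 and -4.73 for the agonist and 4.53, 3.70 and 6.22 for the antagonist. It was taken from TPM as deposited and not repeated after scaling. Correlations of library pairs did not set the agonist group apart. Agonist replicates 2 and 3 correlated at 0.9861, below agonist 2 with antagonist 2 (0.9868) and agonist 3 with antagonist 1 (0.9871). The antagonist pairs were at 0.9923 to 0.9932. In the agonist libraries 38.5% to 40.0% of the members' TPM fell to their 10 leading genes, and in the antagonist libraries 35.6% to 37.6%. The worth of a single fragment in TPM, read from genes with low values and set to 1 in blank replicate 3, was 1.04, 1.03 and 1.08 in the agonist libraries and 1.14, 1.11 and 1.18 in the antagonist libraries. This quantity follows depth and composition, its ranges did not overlap between the agonist and antagonist groups, and its part in the differences cannot be told apart from that of the treatment. In the blank libraries it was 1.21, 1.09 and 1, so the untreated group alone spanned both of these ranges. In the 6 libraries each value was the peak of 70 to 96 ratios, of which 12 to 18 lay at the peak.

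The labelled cell type could be checked with few genes. Of 18 granulosa markers, the table lists only FST, which encodes follistatin, at 39.8, 47.8 and 42.2 TPM under the agonist and 53.4, 52.1 and 51.7 TPM under the antagonist. None of 12 markers of theca and stroma, 8 of red blood cells, 8 of leukocytes or 6 of surface epithelium is among the genes analysed here. Of 7 endothelial markers, CDH5 was listed and stayed at or below 0.121 TPM, and of 8 oocyte markers, ZP1 was listed at 0.208 to 0.442 TPM. The GnRH receptor gene itself was not analysed here.

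Transcripts of 225 of the 806 genes (27.9%) differed between the peptides, and 211 of these (26.2% of all) were lower with the agonist. Calls were made with limma at a Benjamini-Hochberg adjusted p under 0.05 over all 806 genes. Fell, decrease and increase here and below describe the agonist against the antagonist, and not a change from the blank libraries. Genes lower with the agonist coded for a mitochondrial deacetylase (SIRT3), an iron carrier (SLC25A28) and the priming protein of glycogen (GYG1), among others. They also coded for a heparan sulfate-cleaving enzyme (HPSE) and the early response factor EGR1. The 14 genes that were higher with the agonist (1.74%) included ID4, which restrains helix-loop-helix transcription factors. They also included 3 of 14 tested ribosomal protein genes, 1 of 8 proteasome genes and 2 of 19 secretory pathway genes. The same lists had 2, 1 and 3 decreases. No gene was called higher without agonist replicate 1 or with the worth of a fragment as a covariate. In these cultures, fewer cells of a type and less RNA per cell cannot be told apart. The called decreases ran from -1.14 to -0.24 on the log2 scale of TPM + 1, with a median of -0.48, and the increases from 0.24 to 0.63, with a median of 0.34. Only 3 decreases reached 1 in size and 91 reached 0.5. All 3 agonist libraries lay below all 3 antagonist libraries for 366 genes (45.4%) and above them for 26 genes (3.23%). Of the called genes, 206 of the 211 lower and 13 of the 14 higher were apart in this way. Called genes were picked for a gap between the groups, so groups apart in a called gene below add no support to its call.

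The balance of higher and lower calls depended on how libraries were scaled to each other. With TPM as deposited, the 806 genes had a median log2 fold change of -0.21. It was -0.05 after upper quartile scaling, 0.0047 after median of ratios scaling and 0.02 after quantile normalization. In place of 14 higher and 211 lower genes, upper quartile scaling called 39 higher and 76 lower. Median of ratios scaling called 58 higher and 63 lower, and quantile normalization 24 higher and 27 lower. Of the 225 calls, 35 were made under all 3 scalings, 10 higher and 25 lower. Counts and medians of a list under the 3 scalings are given below in this order. Such counts are to be read beside 39, 58 and 24 higher and 76, 63 and 27 lower of all 806 genes. The shares of 26.2% lower and 1.74% higher hold for TPM as deposited only. Of 79 called genes picked by the naming rule, 28 were called under all 3 scalings and 22 under none. The latter include FST, SKI, FN1, PDLIM4, ZYX, PCYT2, RPL22, ECPAS, SNX30, TPCN1, SLC24A5, RBM24, E2F8, CENPH, FANCA, NUDT6, AHSA2, IRAK4, NF1, PLEKHM1 and JMJD8. A gene at a log2 fold change near -0.21 did not stand apart from the others.

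**Figure D1:**
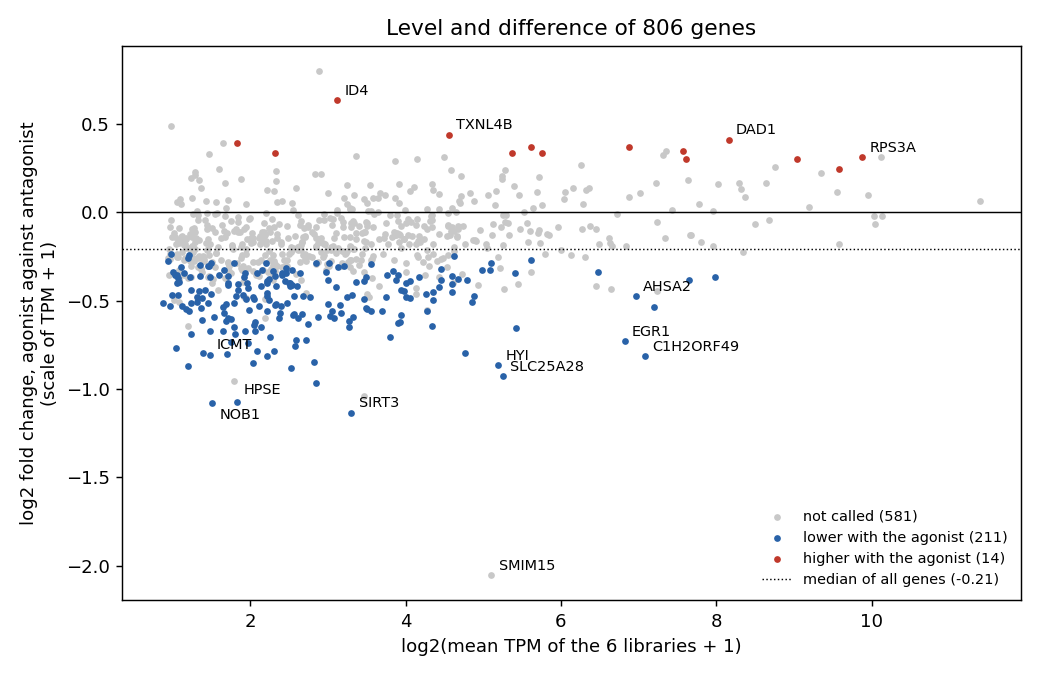
Each point is a gene, with its mean level in the 6 libraries as log2(mean TPM + 1) on the horizontal axis and its log2 fold change of agonist against antagonist on the vertical axis. The 211 genes called lower sit mostly at low and middle levels, the 14 called higher mostly at high levels, and the dotted line marks the median of -0.21.

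The calls also leaned on single libraries, and for genes picked by the naming rule the calls lost without each are given below. Without agonist replicate 1, limma called 21 genes, all lower, and without antagonist replicate 3 it called 43. The count was 89 without antagonist replicate 1, 129 without agonist replicate 3, 163 without antagonist replicate 2 and 301 without agonist replicate 2. The number of higher calls was 0 without agonist replicate 1, 2 without antagonist replicate 1 or 3, 7 without agonist replicate 3, 8 without antagonist replicate 2 and 23 without agonist replicate 2. Without agonist replicate 1, 251 genes had an unadjusted p under 0.05, against 357 with all libraries. Counts of a list over the fits without 1 library are to be read beside 0 to 23 higher and 21 to 278 lower of all 806 genes. With the worth of a fragment as a covariate, 9 genes were called, all lower, so that every other call in the text was lost. They were SIRT3, SLC25A28, HYI, EGR1, HPSE, ICMT, NOB1, ABI3BP and OXLD1. A call lost with this covariate did not always go with a smaller difference. The log2 fold change of ID4 was 0.65 with it and 0.63 without, and that of JMJD8 -0.83 and -0.65. That of FN1 was -0.26 with it and -0.51 without. The median of all 806 genes was -0.16 with it and -0.21 without.

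Of the flow cells named in the labels, H75K3DMXX carried agonist replicate 1 and antagonist replicate 2, and H77KGDMXX carried agonist replicate 2 and antagonist replicates 1 and 3. Agonist replicate 3 ran on H773TDMXX with blank libraries. The median log2 difference of the 806 genes was -0.23 within the first of these flow cells and -0.14 within the second. With the flow cell as a term in the model, 11 genes were called higher and 131 lower. Of genes picked by the naming rule, ATP5J2, DNAJC19, PSMB3, RPL27, TXNL4B, NDUFV1, RPL22, FST, SKI, FN1, ZYX, CENPH, FANCA, NUDT6, PLEKHM1, RBM24 and JMJD8 lost their call with this term, at adjusted p of 0.0514 to 0.102 in limma. ATP5IF1 gained a call (adjusted p = 0.0450).

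**Figure D2:**
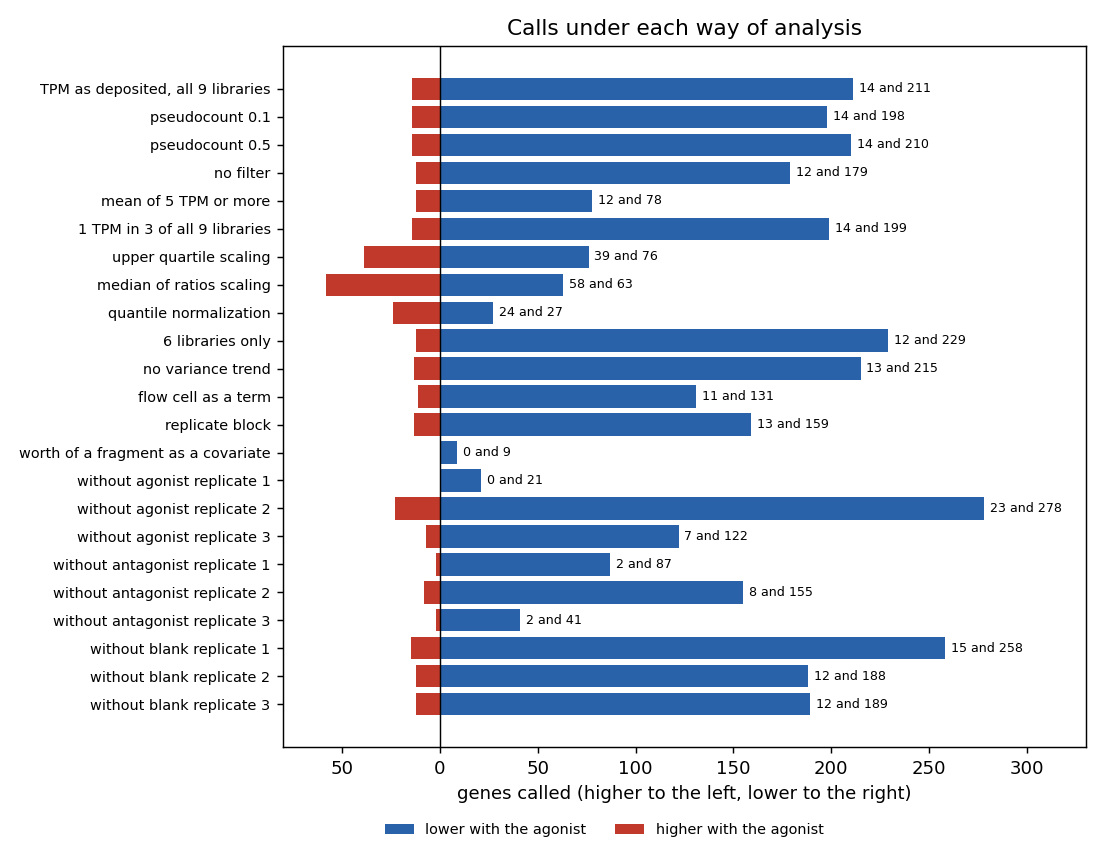
The bars count the genes called higher (to the left) and lower (to the right) with the agonist under each way of analysis, and each bar is followed by these 2 counts. The TPM as deposited give 14 and 211, median of ratios scaling gives 58 and 63, and leaving out agonist replicate 1 gives 0 and 21.

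A set of 7 genes was called under all the alternatives that tested them, and its members, SIRT3, SLC25A28, HYI, EGR1, HPSE, ICMT and NOB1, were lower with the agonist in each. HPSE, ICMT and NOB1 were not tested with the filter of a mean of 5 TPM.

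SIRT3 encodes the main deacetylase of the mitochondrial matrix. Its transcript was at 3.93, 6.08 and 5.61 TPM in agonist replicates 1, 2 and 3 and at 11.2, 12.8 and 13.5 TPM in the antagonist replicates in the same order. The groups did not overlap, and the blank libraries, at 7.87, 6.76 and 5.07 TPM, overlapped the agonist range and stayed below the antagonist range. It fell by 1.14 in limma (log2 fold change -1.14 ± 0.17, SE, adjusted p = 0.00393), and its value relative to the median of all genes was -0.93.

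SLC25A28 encodes mitoferrin 2, which carries iron across the inner mitochondrial membrane. Its TPM were 23.9, 24.8 and 27 with the agonist and 48.3, 50.8 and 47.4 with the antagonist. The groups were far apart with little spread inside either. The blank libraries ranged from the agonist level upward, at 36.6, 30.4 and 25.8 TPM. In limma the log2 fold change was -0.93 ± 0.12 (adjusted p = 0.00319), and relative to the median of all genes it was -0.72.

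HYI encodes a putative hydroxypyruvate isomerase, an enzyme of small carbohydrate acids. Agonist libraries held 23.8, 28.1 and 23 TPM and antagonist libraries 42.7, 48.4 and 47.4 TPM. The blank libraries, at 24.8, 27.5 and 26.7 TPM, fell within the agonist range and well below the antagonist range. Its log2 fold change of -0.86 ± 0.10 had the smallest adjusted p of the 806 genes (limma, 0.00264).

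EGR1, the zinc finger factor induced early after receptor activation in many cells, was at 79.1, 95.3 and 77.9 TPM under the agonist and 142, 140.1 and 137 TPM under the antagonist. The antagonist libraries lay close together and above both other groups, the blank ones being at 100.5, 92.5 and 88.9 TPM. The decrease was -0.73 ± 0.09 on the log2 scale (limma, adjusted p = 0.00319), with differences of -0.82 within H75K3DMXX and -0.54 within H77KGDMXX.

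HPSE encodes heparanase, which cuts heparan sulfate chains of the matrix. It stood at 1.18, 1.53 and 1.12 TPM under the agonist, 3.52, 3.48 and 4.37 TPM under the antagonist and 1.55, 1.2 and 0.718 TPM in the blank libraries. Every antagonist library was thus above every library of the other groups, at a log2 fold change of -1.07 ± 0.15 for agonist against antagonist (limma, adjusted p = 0.00325). Its annotated span overlaps a long noncoding RNA gene, and since use of strand is not given, reads of the 2 genes cannot be told apart.

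ICMT encodes the methyltransferase that finishes prenylated proteins such as RAS, and NOB1 the endonuclease that makes the 3′ end of 18S ribosomal RNA. ICMT was at 0.734, 1.21 and 1.13 TPM under the agonist and 2.59, 2.69 and 2.31 TPM under the antagonist, and NOB1 at 0.916, 0.724 and 0.782 and 2.98, 3.56 and 2.06 TPM. Both were low transcripts whose groups did not overlap, with blank values in between (1.79, 1.69 and 1.35 TPM for ICMT and 1.79, 1.69 and 1.2 TPM for NOB1). Log2 fold changes were -0.81 ± 0.12 and -1.08 ± 0.15 (limma, adjusted p = 0.00392 and 0.00325). The ICMT span overlaps that of GPR153.

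**Figure D3:**
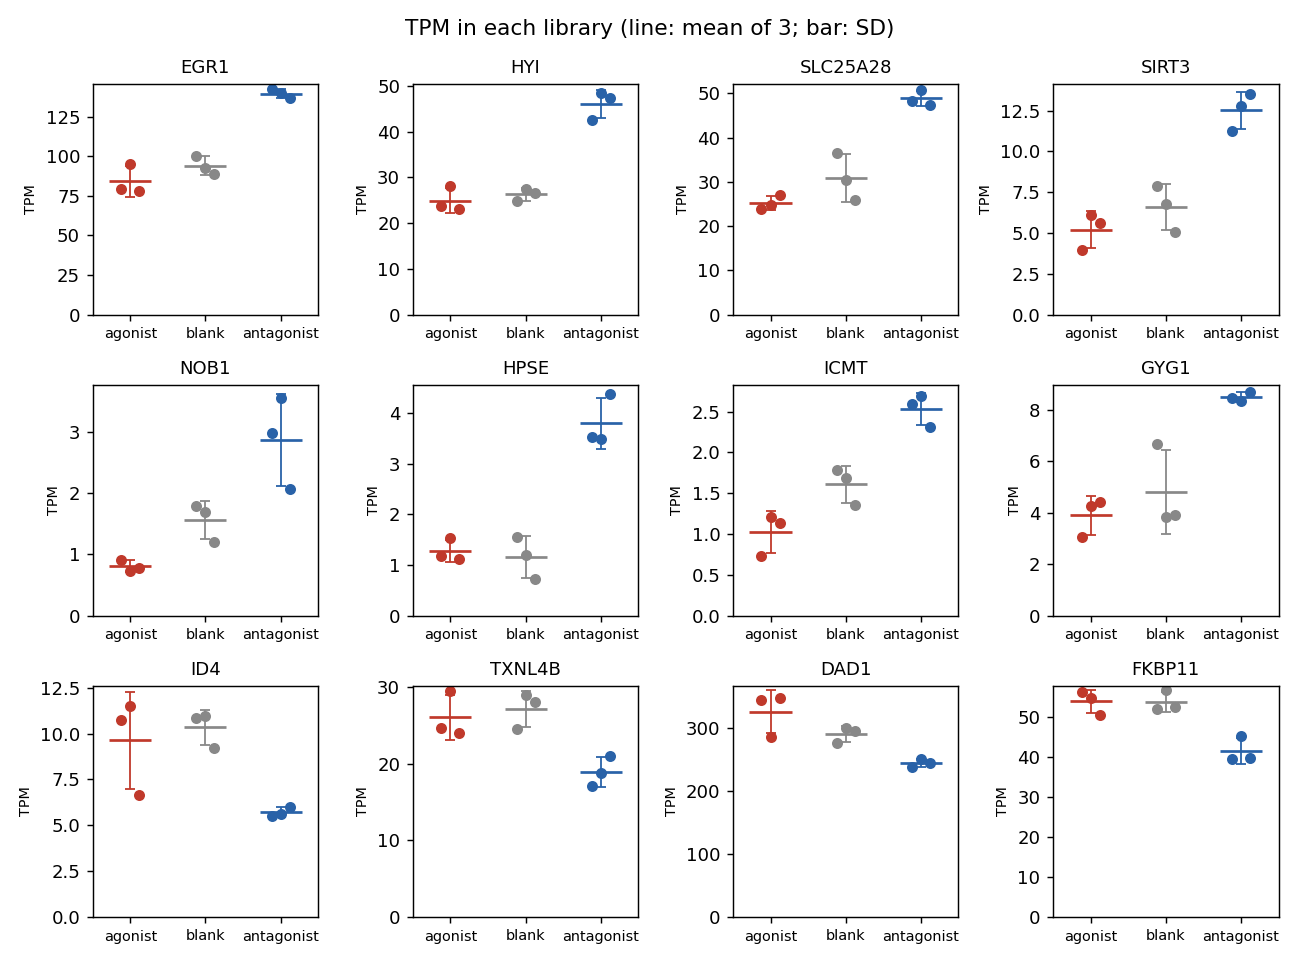
TPM of 12 genes in each library (points) with the mean of 3 libraries (line) and SD (bar) for the agonist, blank and antagonist groups, each axis starting at 0. In the upper 8 panels the antagonist libraries lie above all agonist libraries, in the lower 4 they lie below them, and the agonist library of ID4 nearest to the antagonist group is at 6.63 TPM against at most 6.01 TPM there.

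Genes of the GnRH receptor pathway and of the early response were mostly not called. None of the 3 tested pathway genes was called, beside 27.9% of all genes, and MAPK15 and PPP3R1 had log2 fold changes of -0.40 and -0.12. PPP3R1, the regulatory subunit of calcineurin, was at 2.79, 2.82 and 3.11 TPM under the agonist and 3.42, 3.1 and 3.19 TPM under the antagonist, with overlap. MAPK15 was at 1.1, 1.65 and 1.56 and 2.22, 1.9 and 2.53 TPM, without overlap but short of the threshold (limma, adjusted p = 0.0571). With the 6 libraries alone it was called (limma, adjusted p = 0.0366). In the fits without agonist replicate 2 and without blank replicate 1, 1 pathway gene was called lower, beside 278 and 258 of all 806 genes.

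Of 7 tested early response genes, EGR1 was lower (14.3%, all genes 26.2%) and the other 6 were not called. Without agonist replicate 2, 3 of the 7 were called lower, beside 278 of all 806 genes in that fit. JUN, its partner among immediate early factors, was at 1101, 1181 and 849 TPM under the agonist and 1034, 1176 and 953 TPM under the antagonist. These ranges overlap broadly, and the 95% interval of the log2 fold change, -0.31 to 0.27, covers changes in either direction. CEBPD was at 757, 873 and 534 and 763, 859.5 and 784 TPM and ZFP36L1, a decay factor of messenger RNAs, at 69.5, 114 and 46.1 and 109, 96.4 and 83.8 TPM. In both genes agonist replicate 3 was the lowest of the 6 libraries and agonist replicate 2 the highest. The remaining log2 fold changes were -0.39 for KLF2, -0.04 for DUSP4 and 0.16 for RHOB. Outside these lists, ERRFI1, a feedback inhibitor of the epidermal growth factor receptor, fell by 0.70, from 17.4, 12.7 and 18.7 TPM under the antagonist to 8.42, 10.1 and 9.94 TPM under the agonist (limma, adjusted p = 0.0111). This call was lost after quantile normalization (limma, adjusted p = 0.0516). Left out alone, single libraries ended calls: without agonist replicate 1, that of ERRFI1 (log2 fold change -0.63).

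Ligands and receptors of growth factor signalling were lower or not called. Of 5 tested growth factor genes, 3 were lower (60%, all genes 26.2%) and 0 higher. Of the growth factor genes, the 3 scalings called 0, 0 and 0 higher and 2, 2 and 2 lower, and the fits without 1 library 0 higher and 0 to 3 lower. VEGFA, the main angiogenic factor, was at 2.07, 2.51 and 2.67 TPM under the agonist and 3.92, 4.67 and 4.48 TPM under the antagonist. PDGFA, a ligand for stromal growth, was at 7.7, 9.09 and 8.7 and 12.6, 11.8 and 14.6 TPM. Neither gene's groups overlapped, and the log2 fold changes were -0.65 ± 0.13 and -0.56 ± 0.11 (limma, adjusted p = 0.0121 and 0.0111). ANGPTL4, which restrains lipoprotein lipase, fell by 0.39, while BTC, which activates the same receptor as epidermal growth factor, and SFRP4, a WNT antagonist, had log2 fold changes of -0.21 and -0.18 and were not called. TNFRSF1B, a receptor of tumour necrosis factor, fell by 0.56 and EDA2R, a receptor of the same family, by 0.54. EDA2R was an abundant transcript at 113, 128 and 115 TPM under the agonist and 174, 173 and 170.2 TPM under the antagonist, with no overlap. Calls lost on leaving out a library were, without agonist replicate 1, those of VEGFA, PDGFA, ANGPTL4 and TNFRSF1B (log2 fold changes -0.58 to -0.31), without antagonist replicate 1, that of TNFRSF1B (log2 fold change -0.55) and without antagonist replicate 3, those of VEGFA, PDGFA, ANGPTL4 and TNFRSF1B (log2 fold changes -0.63 to -0.37).

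In the activin and bone morphogenetic protein pathway, 1 of 4 tested genes was higher (25%, all genes 1.74%). Decreases were 2 (50%, all genes 26.2%). Of the activin pathway genes, the 3 scalings called 1, 1 and 1 higher and 0, 0 and 0 lower, and the fits without 1 library 0 to 1 higher and 0 to 2 lower. ID4, a target of bone morphogenetic proteins, showed the highest called increase of all genes. It was at 10.8, 11.5 and 6.63 TPM under the agonist and 5.52, 5.6 and 6.01 TPM under the antagonist, so that 2 agonist libraries stood far above the antagonist group and agonist replicate 3 just above it. The blank libraries, at 10.9, 11 and 9.23 TPM, were all above the antagonist group. Its log2 fold change was 0.63 ± 0.16 (limma, adjusted p = 0.0221). FST fell by 0.27 (limma, adjusted p = 0.0447) and SKI, a repressor of the pathway's SMAD proteins, by 0.35, but both decreases lie near the median of all genes, and after median of ratios scaling the FST value was -0.01. BMP4 was at 32.1, 38.3 and 25.9 and 32.2, 36 and 36.5 TPM, and these ranges overlap. The calls that needed a given library were, without agonist replicate 1, those of ID4, FST and SKI (log2 fold changes -0.34 to 0.54), without agonist replicate 2, that of SKI (log2 fold change -0.31), without agonist replicate 3, those of FST and SKI (log2 fold changes -0.39 to -0.26), without antagonist replicate 1, those of ID4, FST and SKI (log2 fold changes -0.37 to 0.61), without antagonist replicate 2, those of ID4 and FST (log2 fold changes -0.28 to 0.62), without antagonist replicate 3, those of ID4, FST and SKI (log2 fold changes -0.28 to 0.66), without blank replicate 2, that of FST (log2 fold change -0.27) and without blank replicate 3, that of FST (log2 fold change -0.27).

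Among 9 tested genes of matrix, adhesion and actin, 3 were lower (33.3%, all genes 26.2%) and 0 higher. Of the matrix genes, the 3 scalings called 0, 1 and 0 higher and 0, 0 and 0 lower, and the fits without 1 library 0 higher and 0 to 3 lower. FN1, which encodes fibronectin, was at 0.995, 1.51 and 1.31 TPM under the agonist and 2.13, 2.13 and 2.43 TPM under the antagonist. The focal adhesion proteins PDLIM4 and ZYX fell by 0.50 and 0.35. Groups of all 3 genes did not overlap, yet none was called lower under any of the 3 scalings. SPARC, a matrix glycoprotein, had a log2 fold change of 0.03 and was not called. Dropping a library ended these calls: without agonist replicate 1, those of FN1, PDLIM4 and ZYX (log2 fold changes -0.43 to -0.30), without agonist replicate 3, those of FN1 and ZYX (log2 fold changes -0.53 to -0.31), without antagonist replicate 1, those of FN1 and ZYX (log2 fold changes -0.53 to -0.36), without antagonist replicate 2, that of FN1 (log2 fold change -0.53) and without antagonist replicate 3, those of FN1, PDLIM4 and ZYX (log2 fold changes -0.47 to -0.32).

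Of 18 tested genes of cholesterol and lipid metabolism, 9 were lower and 0 higher, beside 26.2% lower over all genes, and the median log2 fold change was -0.35. Of the lipid genes, the 3 scalings called 1, 1 and 1 higher and 1, 1 and 2 lower, and the fits without 1 library 0 to 1 higher and 0 to 10 lower. Lipid genes had a median of -0.18, -0.12 and -0.06 under the scalings. PLA2G4A, the cytosolic phospholipase that releases arachidonic acid for prostaglandins, was at 4.3, 5.45 and 4.72 TPM under the agonist and 7.94, 7.41 and 7.88 TPM under the antagonist. Its groups were well apart, and its decrease of 0.59 (limma, adjusted p = 0.0111) was called under all 3 scalings. Its annotated span overlaps PTGS2, and strand use is not given. The phosphatidylethanolamine enzyme PCYT2 fell by 0.39, the bile acid binding protein FABP6 by 0.55, the secreted phospholipase PLA2G10 by 0.53, the triglyceride enzyme DGAT2 by 0.37, the sphingomyelinase SMPD2 by 0.36 and the isoprenoid enzyme GGPS1 by 0.35. ANGPTL4 is also in this list. Uncalled members included DHCR7, the last enzyme of cholesterol synthesis, and the peroxisomal reductase DECR2, with log2 fold changes of -0.42 and 0.31. DECR2 was called higher under all 3 scalings (0.50, 0.57 and 0.49), with the flow cell as a term and with the replicate number as a term. Left out alone, single libraries ended calls: without agonist replicate 1, those of PLA2G4A, PCYT2 and ANGPTL4 (log2 fold changes -0.52 to -0.31), without antagonist replicate 1, that of PCYT2 (log2 fold change -0.38) and without antagonist replicate 3, those of PCYT2 and ANGPTL4 (log2 fold changes -0.37 to -0.34).

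Carbohydrate enzymes gave 4 lower and 0 higher among 7 tested genes (57.1% lower, all genes 26.2%), and their median log2 fold change was -0.40. Of the carbohydrate genes, the 3 scalings called 0, 0 and 0 higher and 3, 3 and 2 lower, and the fits without 1 library 0 higher and 2 to 4 lower. Carbohydrate genes had a median of -0.24, -0.16 and -0.15 under the scalings. GYG1, glycogenin, starts new glycogen chains. Its TPM were 3.04, 4.25 and 4.41 with the agonist and 8.46, 8.32 and 8.68 with the antagonist, the latter nearly equal to each other. The blank libraries were uneven at 6.68, 3.83 and 3.91 TPM, with replicate 1 between the groups and the others at the agonist level. The log2 fold change was -0.96 ± 0.18 (limma, adjusted p = 0.0111), it was -0.76 relative to the median of all genes, and the call was lost only with the worth of a fragment as a covariate (-0.68, adjusted p = 0.0886). GALK2, which phosphorylates N-acetylgalactosamine, fell by 0.40, and PYGO1, at a decrease of 0.36, entered the list by its symbol and is known as a WNT pathway protein. SORD and the phosphatase PGP, at -0.20 and -0.43, were not called. After quantile normalization the GALK2 value was -0.15 and not called. Calls lost on leaving out a library were, without agonist replicate 1, that of GALK2 (log2 fold change -0.39), without antagonist replicate 1, that of GALK2 (log2 fold change -0.41) and without antagonist replicate 3, that of GALK2 (log2 fold change -0.36).

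Mitochondrial transcripts did not move as a block. Of 15 tested genes of the respiratory chain and ATP synthase, 1 was higher (6.67%, all genes 1.74%) and 1 lower (6.67%, all genes 26.2%). Their median log2 fold change was -0.09. Of the respiratory chain genes, the 3 scalings called 1, 2 and 0 higher and 1, 1 and 0 lower, and the fits without 1 library 0 to 2 higher and 0 to 2 lower. Respiratory chain genes had a median of 0.11, 0.17 and 0.10 under the scalings. ATP5J2, a subunit of the ATP synthase membrane part, was at 225, 194 and 228 TPM under the agonist and 181, 178 and 164 TPM under the antagonist (log2 fold change 0.30 ± 0.09, limma, adjusted p = 0.0348). NDUFV1, a core subunit of complex I, was at 0.237, 0.562 and 1.1 TPM under the agonist and 1.48, 2.53 and 1.83 TPM under the antagonist. Both genes were apart between the groups, the first at high and the second at low level with wide spread inside the agonist group. ATP5IF1, the inhibitor of the ATP synthase, was at 1356, 1058 and 1296 and 938, 1102 and 939 TPM, overlapped between groups and missed the threshold (limma, adjusted p = 0.0579). The calls that needed a given library were, without agonist replicate 1, those of ATP5J2 and NDUFV1 (log2 fold changes -0.69 to 0.27), without agonist replicate 3, that of ATP5J2 (log2 fold change 0.26), without antagonist replicate 1, that of ATP5J2 (log2 fold change 0.33), without antagonist replicate 2, that of ATP5J2 (log2 fold change 0.32) and without antagonist replicate 3, those of ATP5J2 and NDUFV1 (log2 fold changes -0.89 to 0.26).

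Of 25 other mitochondrial genes, 6 were lower (24%, all genes 26.2%) and 1 was higher (4%, all genes 1.74%), with a median of -0.19. Of the other mitochondrial genes, the 3 scalings called 3, 3 and 1 higher and 4, 4 and 2 lower, and the fits without 1 library 0 to 1 higher and 4 to 9 lower. Other mitochondrial genes had a median of -0.02, 0.04 and 0.02 under the scalings. Besides SIRT3 and SLC25A28, the called decreases included those of SLC25A42, SLC25A46 and MRPL48. SLC25A42, a coenzyme A carrier, fell by 0.67, SLC25A46, a factor of mitochondrial shape, by 0.56, and the mitochondrial ribosomal protein MRPL48 by 0.46. DNAJC19, a cochaperone of protein import, was higher, at 44.4, 44.2 and 46.3 against 32.5, 37.4 and 36.6 TPM. TIMM10, an intermembrane chaperone and the most abundant transcript of the comparison, was at 2811, 2351 and 3081 and 2383, 2916 and 2580.1 TPM, with broad overlap and a log2 fold change of 0.06. Other mitochondrial ribosomal proteins were on both sides of 0, from -0.32 for MRPL39 to 0.33 for MRPL58. Dropping a library ended these calls: without agonist replicate 1, that of DNAJC19 (log2 fold change 0.34), without agonist replicate 3, that of DNAJC19 (log2 fold change 0.31), without antagonist replicate 1, that of DNAJC19 (log2 fold change 0.27) and without antagonist replicate 3, that of DNAJC19 (log2 fold change 0.36).

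Of 9 tested redox and iron genes, ALAD, the second enzyme of heme synthesis, was the sole call (11.1% lower, all genes 26.2%). Of the redox and iron genes, the 3 scalings called 1, 1 and 2 higher and 1, 1 and 0 lower, and the fits without 1 library 0 higher and 1 to 3 lower. ALAD was at 0.806, 0.483 and 0.309 TPM under the agonist and 1.61, 1.8 and 1.38 TPM under the antagonist, so the groups were apart at very low levels, and it fell by 0.77 (limma, adjusted p = 0.0144). The iron store FTH1 was at 982, 1355 and 1031 and 1118, 1108 and 1162 TPM, where agonist replicate 2 exceeded and the other agonist libraries lay below every antagonist library. FTL and catalase (CAT) had log2 fold changes of -0.28 and -0.29 and were not called.

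Cytosolic ribosomal protein genes went in both directions. Of 14 tested, RPS3A, RPL30 and RPL27 were higher (21.4%, all genes 1.74%) and RPL11 and RPL22 lower (14.3%, all genes 26.2%). The 3 higher genes were above 50 TPM, where 9.88% of 81 genes were higher and 8.64% lower, and RPL11 and RPL22 were below it. The median log2 fold change was 0.06. Of the ribosomal protein genes, the 3 scalings called 4, 6 and 0 higher and 1, 1 and 0 lower, and the fits without 1 library 0 to 4 higher and 0 to 2 lower. Ribosomal protein genes had a median of 0.25, 0.32 and 0.14 under the scalings. RPS3A was at 1015, 987 and 1128 TPM under the agonist and 852, 839 and 829 TPM under the antagonist, RPL30 at 572, 567 and 607 and 467, 479 and 471 TPM, and RPL27 at 855, 770.1 and 852 and 697, 708 and 685 TPM. RPL11, which was far less abundant, was at 2.9, 3.69 and 2.7 and 5.35, 5.68 and 4.52 TPM and RPL22 at 11.2, 10.5 and 12.4 and 15.9, 18.2 and 18.3 TPM. None of these 5 genes had overlapping groups. Left out alone, single libraries ended calls: without agonist replicate 1, those of RPS3A, RPL30, RPL27, RPL11 and RPL22 (log2 fold changes -0.57 to 0.33), without agonist replicate 3, those of RPS3A, RPL30 and RPL27 (log2 fold changes 0.22 to 0.27), without antagonist replicate 1, those of RPS3A, RPL30 and RPL27 (log2 fold changes 0.24 to 0.32), without antagonist replicate 2, those of RPS3A, RPL30, RPL27 and RPL22 (log2 fold changes -0.55 to 0.31), without antagonist replicate 3, those of RPS3A, RPL30, RPL27 and RPL22 (log2 fold changes -0.55 to 0.30), without blank replicate 2, that of RPL27 (log2 fold change 0.24) and without blank replicate 3, that of RPL27 (log2 fold change 0.24).

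Translation factors and RNA-modifying enzymes had 7 decreases and 0 increases among 23 tested genes (30.4% lower, all genes 26.2%). Of the 23 log2 fold changes 22 were below 0, as were 83.9% of all genes, and the median was -0.23. Of the translation genes, the 3 scalings called 0, 1 and 0 higher and 4, 3 and 3 lower, and the fits without 1 library 0 higher and 1 to 9 lower. Translation genes had a median of -0.07, -0.0042 and -0.01 under the scalings. EIF4G2, a scaffold for cap-independent initiation, was at 9.1, 12.7 and 10.6 TPM under the agonist and 17, 15.9 and 18.4 TPM under the antagonist. NOL9, a kinase of ribosomal RNA processing, was at 2.44, 2.71 and 2.73 and 4.56, 5.1 and 5.06 TPM. Both pairs of groups were apart, at -0.63 ± 0.12 and -0.70 ± 0.14 (limma, adjusted p = 0.0111 for each gene), and both were called under all 3 scalings, as was NOB1. The transfer RNA enzymes TRMT61B and PUS10 fell by 0.49 and 0.44. The initiation factor subunits EIF3M, EIF3E and EIF3L, between -0.14 and -0.12, were not called. Calls lost on leaving out a library were, without agonist replicate 1, those of EIF4G2 and NOL9 (log2 fold changes -0.67 to -0.52).

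Secretory pathway genes included 2 increases (10.5%, all genes 1.74%) and 3 decreases (15.8%, all genes 26.2%) among 19 tested. Of the secretory pathway genes, the 3 scalings called 4, 5 and 3 higher and 1, 1 and 0 lower, and the fits without 1 library 0 to 2 higher and 0 to 6 lower. DAD1, a subunit of the oligosaccharyltransferase that puts glycans on proteins, was at 344, 286 and 347 TPM under the agonist and 237, 250.2 and 245 TPM under the antagonist. FKBP11, which helps prolines fold in the secretory pathway, was at 56.5, 54.9 and 50.7 and 39.6, 45.4 and 39.7 TPM. Agonist libraries were above antagonist libraries in both genes, by 0.41 ± 0.09 and 0.37 ± 0.09 on the log2 scale (limma, adjusted p = 0.0147 and 0.0164). MAGT1, another oligosaccharyltransferase subunit, fell by 0.65, DPAGT1, the first enzyme of glycan assembly, by 0.33, and SRP72, of the signal recognition particle, by 0.25, which turned to 0.01 after median of ratios scaling. The oligosaccharyltransferase subunits RPN1 and RPN2, at -0.19 and -0.05, were not called. The calls that needed a given library were, without agonist replicate 1, those of DAD1, FKBP11 and MAGT1 (log2 fold changes -0.56 to 0.37), without antagonist replicate 1, those of DAD1, FKBP11 and MAGT1 (log2 fold changes -0.61 to 0.39) and without antagonist replicate 3, those of DAD1, FKBP11 and MAGT1 (log2 fold changes -0.61 to 0.41).

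Protein turnover showed 1 increase (12.5%, all genes 1.74%) and 1 decrease (12.5%, all genes 26.2%) in the proteasome list. There were 6 decreases among 39 ubiquitin enzymes and adaptors. Of the 8 proteasome genes, the 3 scalings called 2, 4 and 1 higher and 0, 0 and 0 lower, and the fits without 1 library 0 to 2 higher and 0 to 1 lower. With the flow cell as a term 0 of them were higher and 1 lower, and with the replicate number as a term 1 was higher and 0 lower. Of the ubiquitin genes, the 3 scalings called 1, 2 and 0 higher and 3, 1 and 0 lower, and the fits without 1 library 0 higher and 1 to 12 lower. PSMB3, a subunit of the proteasome core, was at 138, 119.9 and 136 TPM under the agonist and 96.7, 107 and 101 TPM under the antagonist, without overlap (log2 fold change 0.37 ± 0.11, limma, adjusted p = 0.0305). The proteasome adaptor ECPAS fell by 0.36. Other core and lid subunits, PSMB7, PSMA2, PSMD6 and PSMD13, were between -0.18 and 0.11 and not called. DDA1, a part of cullin 4 ubiquitin ligases, was at 4.15, 3.98 and 3.68 and 8.3, 7.08 and 6.21 TPM, KLHL30 fell by 0.65, and FBXO5, which restrains the anaphase-promoting complex, by 0.49. The share of ubiquitin genes called lower, 15.4%, was below the 26.2% of all genes. Dropping a library ended these calls: without agonist replicate 1, those of PSMB3, ECPAS, DDA1 and KLHL30 (log2 fold changes -0.76 to 0.33), without agonist replicate 3, those of PSMB3 and ECPAS (log2 fold changes -0.34 to 0.34), without antagonist replicate 1, those of PSMB3, ECPAS and DDA1 (log2 fold changes -0.63 to 0.34) and without antagonist replicate 3, those of PSMB3, ECPAS, KLHL30 and FBXO5 (log2 fold changes -0.59 to 0.37).

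Vesicle traffic and autophagy, with 44 tested genes the largest list, had 5 decreases (11.4%, all genes 26.2%) and 1 increase (2.27%, all genes 1.74%). Of the vesicle and autophagy genes, the 3 scalings called 4, 6 and 5 higher and 2, 1 and 0 lower, and the fits without 1 library 0 to 4 higher and 0 to 14 lower. CHMP1A, a part of the membrane-cutting ESCRT-III machinery, was higher at 62.3, 58.1 and 57.1 TPM against 45.3, 52.8 and 42.5 TPM (log2 fold change 0.34 ± 0.09, limma, adjusted p = 0.0281). VPS11, a core of lysosomal tethering complexes, was lower at 0.677, 0.781 and 1.02 against 1.8, 1.51 and 1.67 TPM. The endosomal protein SNX30 fell by 0.39. Autophagy genes ATG3, ATG13, ATG4B, ATG12 and MAP1LC3B were between -0.23 and -0.08, and none was called. Among 17 transporters, pumps and channels, ABCB9, a lysosomal peptide carrier, fell by 0.57, SLC24A5, a cation exchanger, by 0.59, SLC8B1, the mitochondrial sodium-calcium exchanger, by 0.48, the zinc carrier SLC39A10 by 0.33 and the endolysosomal channel TPCN1 by 0.36. These 5 decreases were 29.4% of the transporter list, beside 26.2% of all genes. Of the transporter genes, the 3 scalings called 1, 1 and 1 higher and 1, 1 and 0 lower, and the fits without 1 library 0 higher and 0 to 7 lower. Left out alone, single libraries ended calls: without agonist replicate 1, those of CHMP1A, VPS11, SNX30, ABCB9, SLC24A5 and TPCN1 (log2 fold changes -0.52 to 0.30), without agonist replicate 3, that of TPCN1 (log2 fold change -0.34), without antagonist replicate 1, those of CHMP1A, SNX30, SLC24A5 and TPCN1 (log2 fold changes -0.53 to 0.31) and without antagonist replicate 3, those of CHMP1A, VPS11, SNX30, SLC24A5 and TPCN1 (log2 fold changes -0.56 to 0.27).

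The transcription factor list also holds CBFB and ID4, a partner and a restrainer of such factors. It gave 11 decreases and 2 increases among 36 tested genes, or 30.6% and 5.56% beside 26.2% and 1.74% of all genes. Of the transcription factors, the 3 scalings called 2, 2 and 2 higher and 5, 5 and 3 lower, and the fits without 1 library 0 to 2 higher and 2 to 14 lower. CBFB, the partner subunit of RUNX factors, was at 2.05, 2.58 and 3.25 TPM under the agonist and 5.26, 4.53 and 5.84 TPM under the antagonist. The zinc finger genes ZNF341 and ZNF276 fell by 0.69 and 0.63, and E2F8, a repressor of cell cycle genes, by 0.53. MAF, the most abundant called member at 204, 240.0 and 215 against 271, 284 and 294 TPM, fell by 0.37, again with no overlap. THAP1 joined ID4 among the increases, at 4.68, 4.35 and 4.6 TPM under the agonist and 3.81, 3.43 and 3.01 TPM under the antagonist (log2 fold change 0.33 ± 0.09, limma, adjusted p = 0.0259). Its blank libraries, at 5.01, 4.94 and 5.02 TPM, were above both groups. The annotated spans of ZNF276 and FANCA overlap, and FANCA, a DNA repair gene, was lower as well, by 0.36. The other called gene of 10 in DNA repair was NUDT6, whose span overlaps FGF2 and which fell by 0.29. Decreases thus made up 20% of the DNA repair genes, beside 26.2% of all genes. Calls lost on leaving out a library were, without agonist replicate 1, those of CBFB, ZNF341, E2F8, FANCA and NUDT6 (log2 fold changes -0.67 to -0.29), without agonist replicate 3, those of FANCA and NUDT6 (log2 fold changes -0.30 to -0.26), without antagonist replicate 1, those of E2F8 and NUDT6 (log2 fold changes -0.48 to -0.29), without antagonist replicate 2, that of FANCA (log2 fold change -0.37) and without antagonist replicate 3, those of CBFB, E2F8, FANCA and NUDT6 (log2 fold changes -0.71 to -0.25).

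Chromatin genes had the lowest median of the lists, -0.61, which stayed between -0.44 and -0.31 under the 3 scalings. Of 7 tested, 5 were lower (71.4%, all genes 26.2%) and 1 was higher (14.3%, all genes 1.74%). Of the chromatin genes, the 3 scalings called 1, 1 and 1 higher and 3, 3 and 2 lower, and the fits without 1 library 0 to 1 higher and 2 to 6 lower. SIRT7, a nuclear deacetylase, was at 11.7, 11 and 10.4 TPM under the agonist and 16, 17.7 and 18.8 TPM under the antagonist, and MORF4L1, a reader of methylated histones, at 1.42, 1.8 and 1.79 and 3.13, 2.82 and 3.21 TPM. CHAMP1, a zinc finger protein of chromosome alignment, was at 4.57, 4.5 and 3.08 and 6.26, 8.77 and 9.23 TPM. In all 3 the groups were apart, by -0.62 ± 0.11, -0.61 ± 0.13 and -0.85 ± 0.16 on the log2 scale (limma, adjusted p = 0.00789, 0.0131 and 0.0111). ING1 fell by 0.49 and JMJD8 by 0.65, the latter spread widely within the agonist group (32.9, 44.2 and 21.8 TPM). JMJD8 bears a domain name of histone demethylases and is known from mammals as a protein of the endoplasmic reticulum. It is still counted in the median and the calls of the chromatin list. The histone variant H2AFZ was higher, at 225, 209 and 203 against 168, 169 and 163 TPM (log2 fold change 0.35 ± 0.08, limma, adjusted p = 0.0173). The calls that needed a given library were, without agonist replicate 1, those of MORF4L1, JMJD8 and H2AFZ (log2 fold changes -0.68 to 0.30), without agonist replicate 3, that of JMJD8 (log2 fold change -0.39), without antagonist replicate 1, those of JMJD8 and H2AFZ (log2 fold changes -0.67 to 0.35), without antagonist replicate 2, that of JMJD8 (log2 fold change -0.59) and without antagonist replicate 3, those of MORF4L1, JMJD8 and H2AFZ (log2 fold changes -0.70 to 0.33).

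In RNA processing, TXNL4B, a thioredoxin-like protein tied to splicing, was the second largest increase at 5 TPM or more. It was at 24.8, 29.5 and 24.1 TPM under the agonist and 17.1, 18.8 and 21 TPM under the antagonist, and the blank libraries, at 24.6, 29 and 28 TPM, lay with the agonist ones. Its log2 fold change was 0.44 ± 0.11 (limma, adjusted p = 0.0205), but its annotated span overlaps TRMT10C and SENP7. Among the 23 tested genes of splicing and RNA processing, RBM24, ZC3H6 and SRSF10 fell by 0.54, 0.52 and 0.41. Of the splicing genes, the 3 scalings called 1, 2 and 1 higher and 1, 1 and 0 lower, and the fits without 1 library 0 to 3 higher and 0 to 7 lower. SNAPC4, which serves transcription of small nuclear RNAs, fell by 0.53. It was the sole call of 14 genes of the transcription machinery (7.14%, all genes 26.2%). WDR6, a partner of a transfer RNA methyltransferase, was at 19.9, 22.2 and 15 and 32.7, 37.2 and 30.6 TPM and fell by 0.80. Its groups were apart, and its span overlaps P4HTM and DALRD3. Dropping a library ended these calls: without agonist replicate 1, those of TXNL4B, RBM24, ZC3H6 and SNAPC4 (log2 fold changes -0.52 to 0.47), without agonist replicate 3, that of RBM24 (log2 fold change -0.52), without antagonist replicate 1, that of TXNL4B (log2 fold change 0.37), without antagonist replicate 2, that of RBM24 (log2 fold change -0.44) and without antagonist replicate 3, those of RBM24 and ZC3H6 (log2 fold changes -0.49 to -0.47).

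Cell division genes had 5 decreases and 0 increases among 22 tested, a share of 22.7% beside 26.2% for all genes. Of the cell division genes, the 3 scalings called 1, 1 and 0 higher and 1, 1 and 0 lower, and the fits without 1 library 0 higher and 0 to 7 lower. Besides E2F8, the decreases were the centrosome genes CEP95 and CEP290, the kinase NEK9 and the kinetochore gene CENPH, which was at 9.9, 11.9 and 10.9 TPM under the agonist and 13.8, 14.4 and 14.4 TPM under the antagonist. CEP290 was at -0.24 and turned to 0.03 after quantile normalization. The cyclin CCND1 and the replication genes MCM6, ORC2, GINS3, GINS4 and TYMS were between -0.26 and -0.11 and were not called. Microtubule genes, 5 of 13 lower (38.5%, all genes 26.2%), were led by MAPT and DCTN3. MAPT, the microtubule-binding protein tau, was at 2.94, 4.09 and 3.35 against 6.39, 6.11 and 6.97 TPM. DCTN3, a dynactin subunit, was at 1.39, 1.62 and 1.56 against 3.54, 2.86 and 3.25 TPM. Both were apart between groups and called under all 3 scalings, by -0.76 ± 0.15 and -0.74 ± 0.11 on the log2 scale (limma, adjusted p = 0.0111 and 0.00492). Of the microtubule genes, the 3 scalings called 0, 0 and 0 higher and 3, 3 and 2 lower, and the fits without 1 library 0 higher and 1 to 8 lower. Left out alone, single libraries ended calls: without agonist replicate 1, those of MAPT, CEP95 and CENPH (log2 fold changes -0.67 to -0.29), without agonist replicate 3, that of CENPH (log2 fold change -0.36), without antagonist replicate 1, that of CENPH (log2 fold change -0.37), without antagonist replicate 2, that of CENPH (log2 fold change -0.34) and without antagonist replicate 3, those of CEP95 and CENPH (log2 fold changes -0.39 to -0.35).

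Of 21 tested kinases and phosphatases, 7 were lower (33.3%, all genes 26.2%) and 0 higher, with a median of -0.26. With TPM as deposited all 21 log2 fold changes were below 0, as were 83.9% of all genes. Of the kinases and phosphatases, the 3 scalings called 0, 0 and 0 higher and 3, 2 and 1 lower, and the fits without 1 library 0 higher and 0 to 10 lower. Kinases and phosphatases had a median of -0.11, -0.05 and 0.02 under the scalings. PPP4R2, a regulatory subunit of protein phosphatase 4, was at 1.03, 1.08 and 1.19 TPM under the agonist and 2.12, 1.89 and 2.17 TPM under the antagonist, PIK3CG, a catalytic subunit of phosphoinositide kinase, at 0.681, 0.793 and 0.878 and 1.31, 1.27 and 1.27 TPM, and ACP6, a lysophosphatidic acid phosphatase, at 0.831, 0.882 and 0.674 and 1.52, 1.94 and 2.25 TPM. None of these groups overlapped. Of 15 tested small GTPases and their regulators, a separate list, 3 were lower (20%, all genes 26.2%) and 0 higher. For this list the 3 scalings called 2, 3 and 0 higher and 0, 0 and 0 lower. Of its members NF1, which switches RAS off, fell by 0.41 and PLEKHM1, a lysosomal fusion factor, by 0.29. Under the 3 scalings NF1 was at -0.27, -0.21 and -0.08 and PLEKHM1 at -0.11, -0.04 and -0.09, and neither was called. In innate immunity 2 of 18 tested genes were called, both lower (11.1%, all genes 26.2%). They were TNFRSF1B and IRAK4, a kinase of Toll-like receptor signalling, which was at 8.84, 9.04 and 10.7 and 14, 15.3 and 14.1 TPM. MYD88, TRAF6, TIRAP and the interferon receptor genes IFNAR1, IFNAR2 and IFNGR2 were between -0.21 and 0.07 and were not called. Calls lost on leaving out a library were, without agonist replicate 1, those of PPP4R2, PIK3CG, ACP6, NF1, PLEKHM1 and IRAK4 (log2 fold changes -0.70 to -0.31), without agonist replicate 3, those of NF1 and PLEKHM1 (log2 fold changes -0.41 to -0.26), without antagonist replicate 1, those of PIK3CG, NF1 and PLEKHM1 (log2 fold changes -0.40 to -0.25), without antagonist replicate 2, that of PLEKHM1 (log2 fold change -0.31) and without antagonist replicate 3, those of PIK3CG, ACP6, NF1, PLEKHM1 and IRAK4 (log2 fold changes -0.60 to -0.32).

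**Figure D4:**
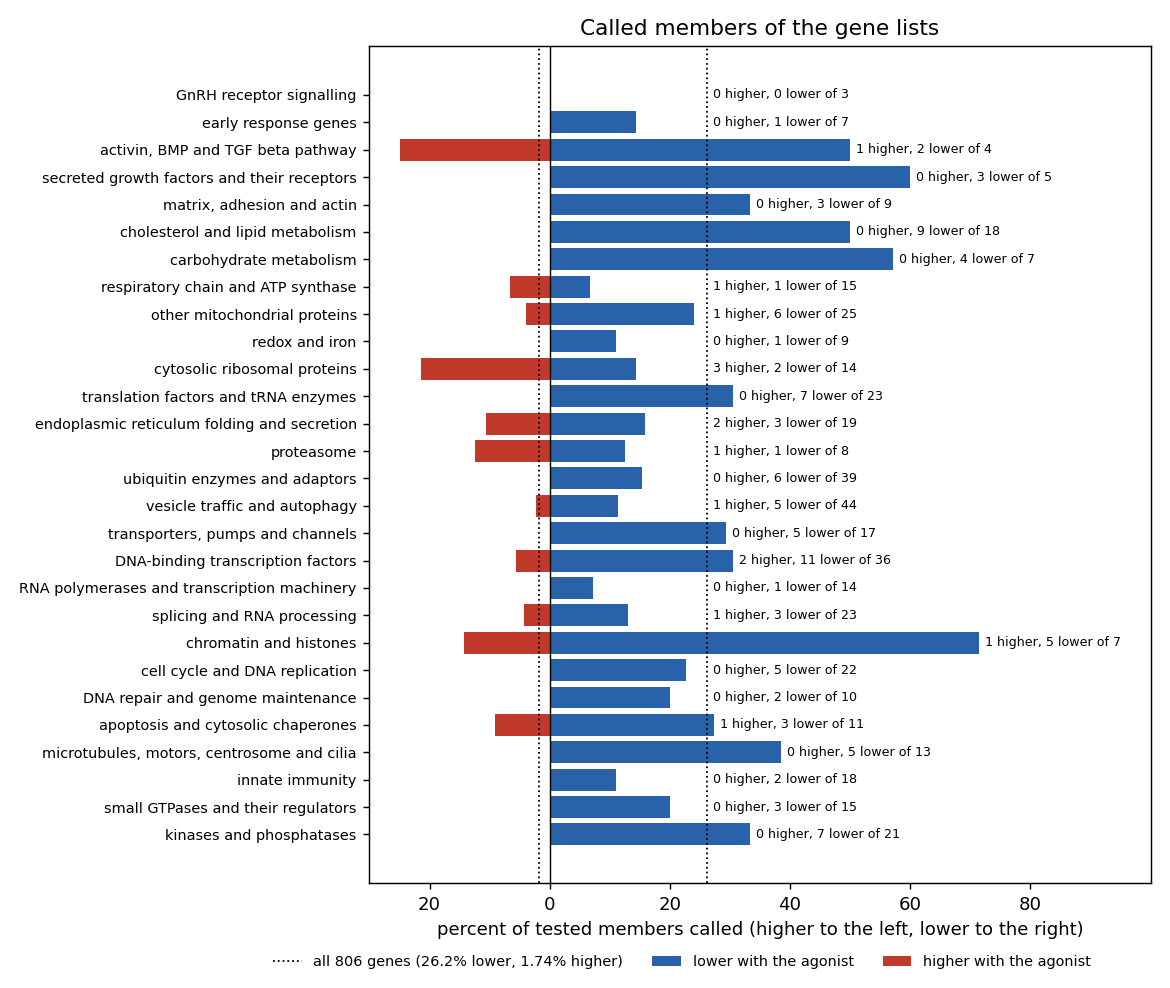
For each list with 3 or more tested members, bars give the percent called lower (to the right) and higher (to the left) with the agonist, and the dotted lines mark the 26.2% lower and 1.74% higher of all 806 genes. Chromatin genes, growth factors, carbohydrate and lipid metabolism, the activin pathway and microtubules lie above the line for decreases. Matrix genes, kinases, transcription factors, translation, transporters and chaperones also lie above it, by less. All 11 lists with an increase lie above the line for increases. List size fixed this in advance, since 1 call in the largest list, of 44 genes, already gives 2.27%. The activin pathway (1 of 4) and ribosomal proteins (3 of 14) lie farthest above that line. The lines take no account of level, and of genes at 50 TPM or more 9.88% were higher.

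The direction of the difference went with the level of the gene. Of 156 genes with a mean under 2 TPM, 45 were lower and 0 higher, with a median log2 fold change of -0.26. The 205 genes at 2 to 5 TPM had 78 decreases and 2 increases, with a median of -0.30. At 5 to 10 TPM the median was -0.21 and at 10 to 50 TPM it was -0.15. The 81 genes at 50 TPM or more had 7 decreases and 8 increases and a median of -0.02. After median of ratios scaling the medians were -0.10, -0.10, 0.02, 0.10 and 0.25 from the lowest to the highest band. The 7 decreases at that level were those of C1H2ORF49, EGR1, EDA2R, MAF, ANGPTL4, AHSA2 and CISH. C1H2ORF49, at 78.6, 108 and 105 TPM under the agonist and 169, 162 and 179.9 TPM under the antagonist, fell by 0.82. TPRA1, a membrane protein of low level, was at 2.57, 3.32 and 3.2 and 7.27, 5.33 and 6.72 TPM, and its decrease of 0.88 was called under all 3 scalings. The most abundant transcripts without a call, besides TIMM10, JUN, FTH1 and ATP5IF1, included the prolyl isomerase PPIA at 963, 1299.8 and 858 and 1058, 1113 and 1056 TPM, where agonist replicate 2 was above and the other agonist libraries were below the antagonist group. The cochaperone AHSA2 fell by 0.47, and CISH, a feedback inhibitor of cytokine receptors, by 0.34. The calls that needed a given library were, without agonist replicate 1, those of C1H2ORF49, TPRA1 and AHSA2 (log2 fold changes -0.80 to -0.42), without antagonist replicate 1, that of AHSA2 (log2 fold change -0.46) and without antagonist replicate 3, those of C1H2ORF49 and AHSA2 (log2 fold changes -0.78 to -0.43).

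**Figure D5:**
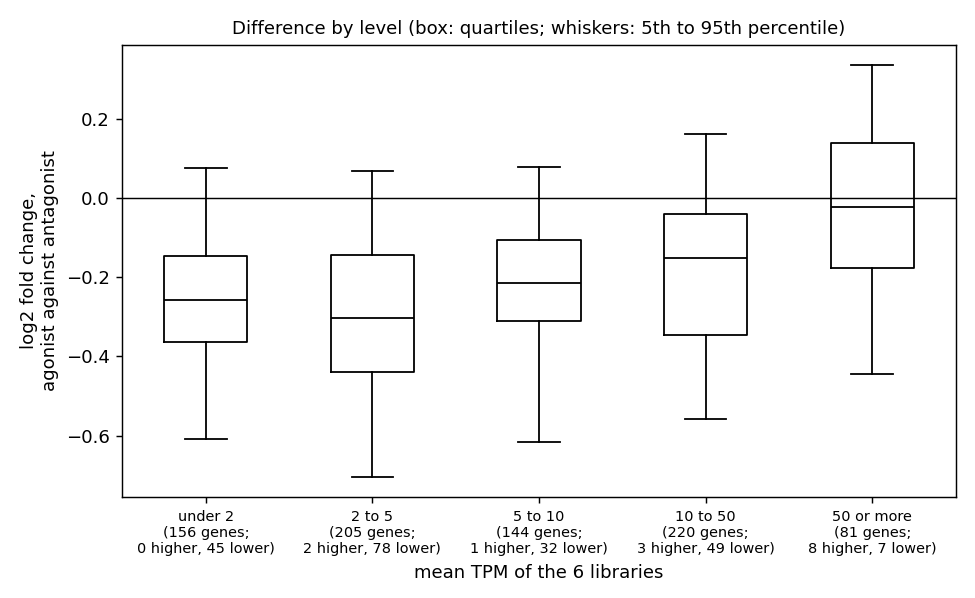
Boxes show the median and quartiles, and whiskers the 5th to 95th percentile, of the log2 fold change of agonist against antagonist for genes grouped by mean TPM in the 6 libraries. The median is -0.26 under 2 TPM and -0.02 at 50 TPM or more.

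Large differences without a call came from uneven replicates. SMIM15 had the most negative value, -2.05 ± 1.10, with 55, 0 and 15.9 TPM in the agonist libraries and 36.2, 25.4 and 67.8 TPM in the antagonist libraries. It is listed at 0 in agonist replicate 2 and is higher in agonist replicate 1 than in 2 antagonist libraries, so its groups overlap. Among uncalled genes C18orf32 was next at -1.04 ± 0.46, with 1.84, 8 and 10.5 and 8.9, 12.5 and 18.2 TPM and overlap through agonist replicate 3. CEND1 had the highest uncalled value, 0.80 ± 0.34, with 9.67, 8.19 and 6.47 TPM under the agonist and 7.06, 5.32 and 1.74 TPM under the antagonist, where antagonist replicate 3 was far below the others. CDO1, a cysteine-degrading enzyme, was the single called increase whose groups overlapped, at 2.5, 3.47 and 3.11 TPM under the agonist and 1.98, 1.67 and 2.57 TPM under the antagonist (log2 fold change 0.39 ± 0.13, limma, adjusted p = 0.0428).

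The mean of the blank libraries lay between the agonist and antagonist means for 179 of the 211 decreases and 10 of the 14 increases. Called genes were picked for a gap between these 2 means, and no such share was computed over all genes. The counts therefore cannot be read as a result about the called genes. Against the blank libraries, which both contrasts share, HYI differed by -0.08 with the agonist and 0.79 with the antagonist on the log2 scale, and HPSE by 0.09 and 1.17. For CHAMP1 the same values were -0.62 and 0.23, for WDR6 -0.41 and 0.39, and for JMJD8 -0.71 and -0.05. HYI and HPSE thus had blank levels near those with the agonist, WDR6 had a blank level midway, and CHAMP1 and JMJD8 had blank levels nearer to those with the antagonist.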

How the data were processed

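RNA was taken from cultured goose granulosa cells in 3 agonist, 3 antagonist and 3 blank libraries. The authors deposited TPM values of 1371 genes, used as given. TPM keeps no depth, so intervals from read numbers cannot be given. Software listed by the submitters' processing notes, with no role stated, is StringTie 1.2.2, Cuffdiff, Cufflinks 2.2.1, TopHat2 2.1.0 and CASAVA 1.8.2. The genome build is not given in the sources used here, nor are the annotation and the strand setting.

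Values were tested as log2(TPM + 1), that is with a pseudocount of 1. On this scale low genes show less change than they have in TPM. Genes with 1 TPM or more in 3 or more of the 6 libraries compared were tested in R 4.3.3 by limma 3.58.1. The model had the 3 groups, all 9 libraries and a variance trend. The Benjamini-Hochberg adjustment ran over all 806 genes, and an adjusted p under 0.05 was a call. An SE or SD is given as such, and means are over 3 libraries. No list was tested as a set. The alternatives were pseudocounts of 0.1 and 0.5, other filters and scalings, the 6 libraries alone, no variance trend, the flow cell or the replicate number as a term, the worth of a fragment as a covariate, and leaving out each library. The tests were checked on simulated data with noise drawn apart for each gene, as many rises as falls and no shift common to all genes. That check therefore does not cover how the calls depend on scaling.

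The members, the 29 gene lists and the rule for named genes were chosen with earlier results of these data known. Named were the 15 largest called changes in each direction at a mean of 5 TPM or more in either group, genes called under all alternatives, up to 3 called genes of each list with 3 or more tested members (or, with none called, the 2 of highest TPM), and the 5 highest TPM. Other genes in the text, such as MAF, EDA2R, CISH, THAP1, CDO1, SMIM15, C18orf32 and CEND1, were chosen after their values were seen, as were the uncalled members of the lists. Lists were built from symbols, so some members are known for other roles. These include PYGO1 among carbohydrate genes, PSMC3IP in the proteasome list, and MYCBPAP, CBFB and ID4 among transcription factors. Others are JMJD8 among chromatin genes, TAX1BP3 in the vesicle and immunity lists, and FKBP11 in the chaperone list. Of the 806 genes, 752 matched a RefSeq symbol of the Taihu goose assembly, which served only to find overlapping genes. Of 86 named genes, 82 matched 1 RefSeq gene and 22 overlapped another annotated gene. Besides the overlaps given above, ACP6, CEP95, FBXO5, GALK2, IRAK4, JMJD8, NF1, SKI, SLC24A5 and SNX30 overlapped a protein-coding gene. MAPT, MORF4L1 and ZC3H6 overlapped a long noncoding RNA gene. Reads of overlapping genes cannot be told apart, since use of strand is not given. The replicate numbers were not taken as pairs. Results of some genes are not reported here.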

Additional observations from a re-analysis of the deposited data

How the results depend on the processing

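Counts in this paragraph are genes called in all, then higher and lower with the agonist, beside 225, 14 and 211. A mean of 5 TPM or more gave 90, 12 and 78 of 445 genes, upper quartile scaling 115, 39 and 76, median of ratios scaling 121, 58 and 63, quantile normalization 51, 24 and 27, the flow cell as a term 142, 11 and 131, and the worth of a fragment as a covariate 9, 0 and 9. With that covariate 190 genes had an unadjusted p under 0.05. Of the 225 calls, the 3 scalings shared 90, 77 and 37. Leaving out 1 library gave 21 to 301 calls, 0 to 23 higher and 21 to 278 lower. Pseudocounts of 0.1 and 0.5, no filter, the filter over 9 libraries, the 6 libraries alone and no variance trend gave 191 to 241 calls, within 1.5 times of 225. The replicate block, with the replicate number as a term, gave 172 calls, 13 higher and 159 lower, of which 165 were among the 225. Deviations of same-numbered libraries correlated at 0.064, 0.215 and 0.225 across genes, and each library correlated best with its own number. Deviations from a group mean sum to 0 within the group, so these correlations depend on each other. The design names no pairs, and pairing was not tested. No called gene named by the rule changed direction under any alternative. Of the other called genes in the text, SRP72 turned to 0.01 after median of ratios scaling and CEP290 to 0.03 after quantile normalization. Of the values of genes named by the rule, 1458 stayed on the same side of the threshold, 395 lost their call and 3, all of ATP5IF1, gained one. Depth is unknown, so what counting error adds to genes near 1 TPM cannot be given. The causes of these changes were not tested.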

Other observations

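COQ2, which builds ubiquinone, was chosen after its values were seen. It was at 1.51, 2.68 and 2.5 TPM under the agonist, 4.35, 4.48 and 3.45 TPM under the antagonist and 2.63, 1.97 and 1.96 TPM in the blank libraries (log2 fold change -0.67 ± 0.16, limma, adjusted p = 0.0164). Its agonist and antagonist libraries did not overlap, and the blank libraries lay within the agonist range. The call was not made after quantile normalization, where the log2 fold change was -0.38. The cysteine desulfurase NFS1, which serves the assembly of iron-sulfur clusters, was not called, at -0.31.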
